A study of Danio rerio with 12 samples.

Results

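The genes described here encode the proteasome of the 24-hour zebrafish embryo and were taken as every row of the table whose gene name begins with psm, a letter from a to g and a digit. The rule found 45 of the 13680 genes listed. They fall into 15 genes of the core particle, 20 of the regulatory particle and 10 others, which are 6 assembly chaperones, 2 activators, 1 inhibitor and 1 gene, psmc3ip, that shares the prefix but encodes no proteasome part.

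The proteasome breaks down proteins that carry a ubiquitin tag. Its core particle is a barrel of stacked rings, in which the alpha subunits form the gate and the beta subunits the chamber with the protein-cutting sites. The regulatory particle caps the barrel, with a base whose ATPases unfold the substrate and a lid that removes the ubiquitin. Every growing tissue of an embryo uses this machine, and an assembled particle holds its alpha subunits in equal number, as it does its beta subunits. The subunit roles named below were worked out in yeast and mammals.

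All 12 libraries came from embryos of the AB strain, made by in vitro fertilisation of eggs of fed wild-type females and frozen at 24 hours after fertilisation. In 6 libraries the sperm came from fed males and in 6 from starved males, so that only the father's feeding differed by label. A library holds 1 to 3 embryos of a clutch, and the labels do not say whether each had its own father. The replicates numbered 5 and 6 carry one description code in common, so p-values here measure the spread between these libraries, which may in part be technical.

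Levels are given as read counts scaled by the size factor of each library and are called values below. They come from 3' tag sequencing, where a transcript gives reads from its polyadenylated end only, so values were not divided by gene length. The reads behind the listed genes came to 2950739 to 3934765 per library, of which 9855 to 17886 fell on the 45 members. A single mitochondrial rRNA gene took from 27.0% of a library's reads, in starved replicate 3, to 48.7%, in fed replicate 5. Markers of embryonic tissues were present, with all 23 muscle, 11 neural, 10 epidermal and 8 lens markers of the lists used found in the table. Summed muscle markers ranged from 6023 in fed replicate 4 to 28254 in fed replicate 3, and summed yolk-layer markers from 3866 in starved replicate 2 to 20065 in fed replicate 5. Fed replicates 4 and 5 stood apart from the other libraries as the 2 with the least muscle and the most yolk-layer signal.

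Core and regulatory subunits were among the well expressed genes of the embryo. The median member had a mean value at the 89.9th percentile of all listed genes. Mean values of core members lay between 33.1 and 302, those of regulatory members between 34.1 and 189, and those of the assembly chaperones between 4.31 and 19.0. The most abundant member was psma8, an alpha subunit, at 294 ± 59.9 in fed-father embryos and 310 ± 78.3 in starved-father embryos (SD, n = 6 each). The least abundant was psmd10, a chaperone of the base, at 5.40 ± 2.45 and 3.23 ± 1.54 (SD, n = 6 each). No row for alternative beta subunits, numbered 8 and above, matched the rule.

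**Figure D1:**
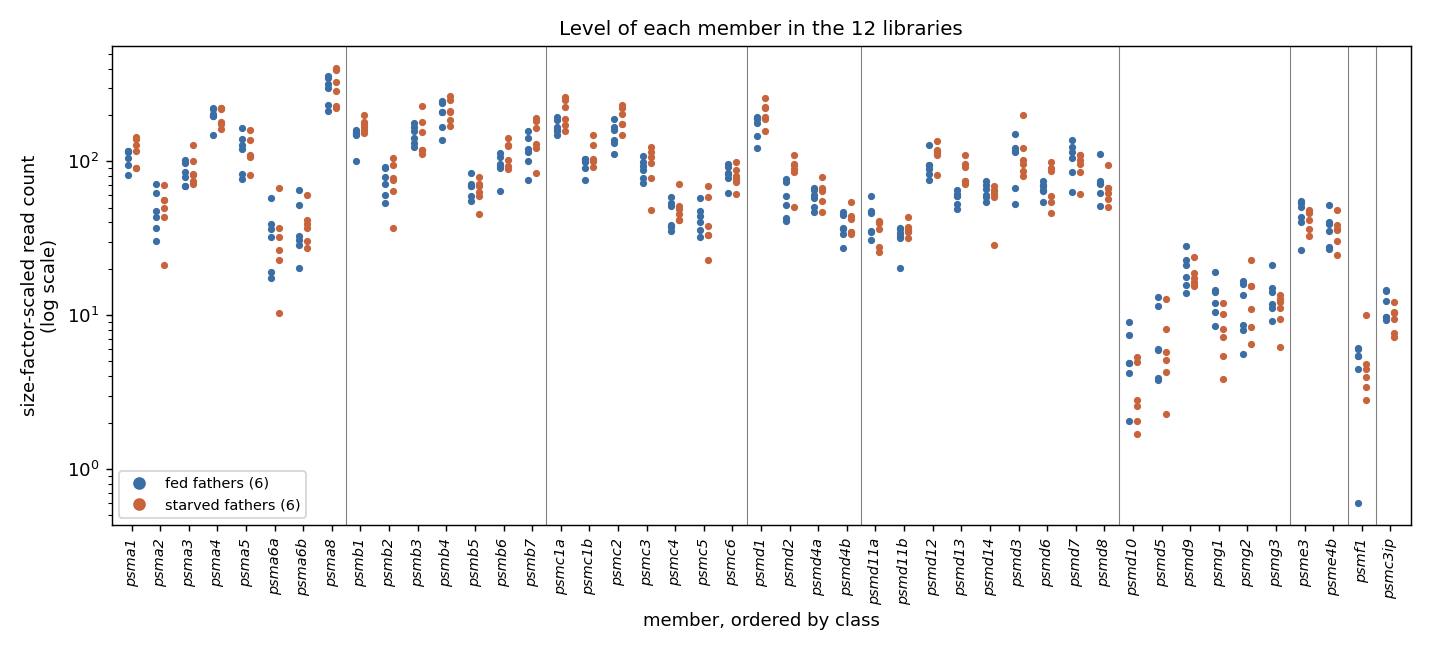
Value of each of the 45 members (size-factor-scaled read count, log axis) in the 6 libraries of fed fathers (blue) and the 6 of starved fathers (orange), with members ordered by class. The 35 core and regulatory members lie between 10.4 and 405 in every library, and the assembly chaperones and the inhibitor psmf1 have group means below 20.

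The question put to these genes was whether their transcripts differ between embryos of starved and of fed fathers. No member passed the test. With limma on log2(value + 1), 0 of 45 had an adjusted p below 0.05 (smallest adjusted p = 0.775), beside 0.0% of all genes. At an unadjusted p below 0.05, limma gave 3 members with higher values (psmd13, psmd2 and psmc2), where 2.11% of all genes were higher by the same rule. It gave 1 with lower values, psmg1, where 3.44% of all genes were lower. The 4 together stand beside 5.54% of all genes in either direction. The authors' deposited table gives fold changes and FDRs from edgeR and also called none of the 45 at its limit of an FDR below 0.1, where it called 1.06% of all genes. The lowest FDR among the members in the authors' deposited table was 0.136, for psmd2, and the next was 0.168, for psmd13.

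By direction alone, 25 members averaged higher and 20 lower in starved-father embryos , where 48.0% of all genes were higher. The median log2 difference, starved minus fed, was 0.06 over the 15 core members, 0.12 over the 20 regulatory members and -0.15 over the 10 others, beside -0.01 over all genes. The core median was -0.03 without starved replicate 5, the only single library whose removal turned its sign. It was 0.01 without fed replicate 6 and 0.02 without starved replicate 1. It was 0.10 without starved replicate 2, 0.15 without starved replicate 3 and -0.01 with replicates 5 and 6 averaged. The regulatory median was 0.08 without fed replicate 4, and 0.18 without fed replicate 1 or without starved replicate 4. The difference between the core and regulatory medians was not tested. For 42 of the 45 members the 95% interval of the log2 difference lay between -1 and 1, and the exceptions were psmd2, psmg1 and psmd10. For core and regulatory members other than psmd2, a change of 2-fold or more thus lay outside the interval. The scale, log2(value + 1), understates changes of low genes, so the same cannot be said of low members such as psmd5 and psmf1. In whole embryos, fewer cells of a type and less RNA per cell cannot be told apart.

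**Figure D2:**
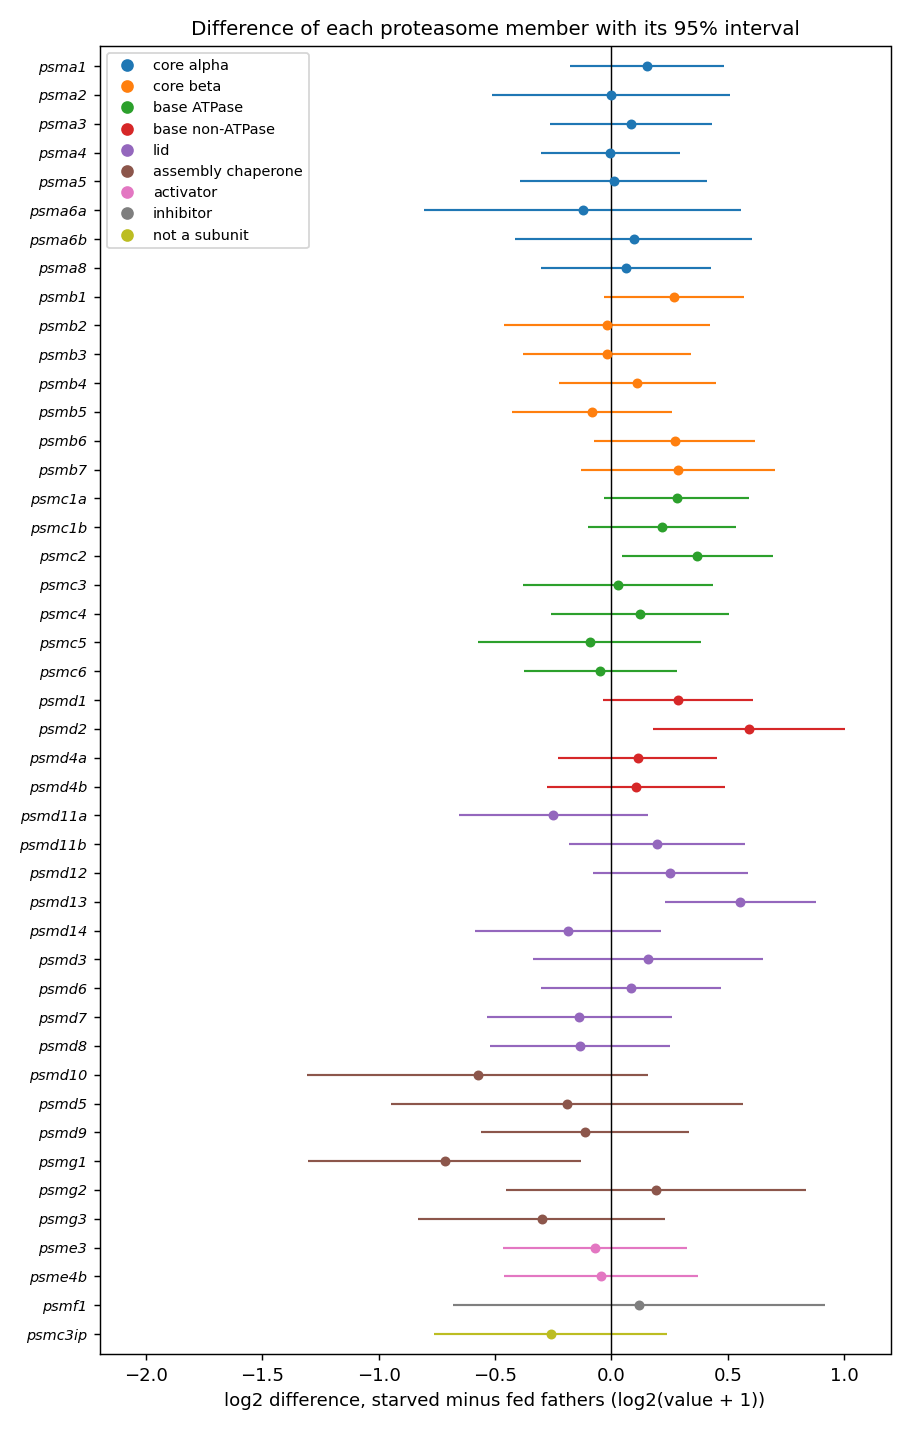
Log2 difference of each member, starved minus fed fathers (points), with its 95% interval from limma (lines), coloured by class. Intervals of psmd13, psmd2 and psmc2 lie above 0 and that of psmg1 lies below 0, and all others cross 0.

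Among the alpha subunits, which shape and gate the entry to the core, 5 of 8 averaged higher and 3 lower in starved-father embryos (mean of log2 values), and limma called none. After psma8 the most abundant was psma4, at 197 ± 26.5 in fed-father embryos and 196 ± 26.9 in starved-father embryos (SD, n = 6 each). Its log2 difference was -0.00, with a 95% interval from -0.30 to 0.29, the narrowest interval among the alpha subunits. For psma1 the means were 105 ± 14.6 and 118 ± 23.3, and for psma5 they were 118 ± 33.2 and 118 ± 27.6 (SD, n = 6 each). The mean of psma3 was 83.4 ± 13.7 in the fed and 89.3 ± 20.9 in the starved group, and that of psma2 was 48.5 ± 15.3 and 49.4 ± 16.4 (SD, n = 6 each). Both groups overlapped for each of these genes.

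The alpha subunit psma6a varied most among the core members. Its value was 32.3, 36.4, 19.1, 38.9, 57.7 and 17.3 in fed replicates 1 to 6. In starved replicates 1 to 6 it was 32.4, 37.0, 10.4, 26.4, 66.9 and 22.9. The highest library held 6.45 times the lowest, starved replicate 3, which stood on 43 reads. The group means of psma6a, 33.6 ± 14.8 and 32.7 ± 19.1 (SD, n = 6 each), were close. Its 95% interval ran from -0.81 to 0.56 on the log2 scale. High values stood in fed replicate 5 and starved replicate 5, low ones in starved replicate 3 and in fed replicates 3 and 6, so the variation ran across both groups.

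The beta subunits line the cutting chamber, and 4 of 7 averaged higher and 3 lower in starved-father embryos (mean of log2 values), with none called. The catalytic sites sit on psmb5, psmb6 and psmb7. The chymotrypsin-like subunit psmb5 was at 68.2 ± 10.04 in the fed and 64.6 ± 11.7 in the starved group, and the caspase-like subunit psmb6 at 93.6 ± 17.1 and 113 ± 21.4 (SD, n = 6 each). For psmb7, the trypsin-like subunit, the means were 118 ± 29.2 and 146 ± 41.4 (SD, n = 6 each). Log2 differences were -0.08, 0.27 and 0.29 in that order, and each 95% interval included 0.

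Of the beta subunits without a cutting site, psmb4 was the most abundant, at 200 ± 41.8 in the fed and 215 ± 36.6 in the starved group (SD, n = 6 each). For psmb3 the means were 150 ± 20.9 and 152 ± 45.8, and for psmb2 they were 74.3 ± 15.7 and 75.7 ± 24.0 (SD, n = 6 each). The beta subunit psmb1 had values of 158, 147, 152, 154, 149 and 100 in fed replicates 1 to 6. It had values of 167, 198, 159, 180, 153 and 175 in starved replicates 1 to 6. All 6 starved-father libraries lay above the fed mean of 144 ± 21.5, and the groups overlapped between 153 and 158. How many of all genes have all 6 such libraries on the same side of the fed mean was not counted, here or below. Its log2 difference was 0.27 ± 0.14 (SE, limma adjusted p = 0.885), with a 95% interval from -0.03 to 0.57.

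In the regulatory particle 14 of 20 members averaged higher and 6 lower in starved-father embryos (mean of log2 values). Its base holds a ring of ATPases (psmc genes) that pull the substrate into the core. Of the 7 ATPase genes 5 had a higher and 2 a lower mean. The ATPase gene psmc2 was at 167, 132, 138, 159, 188 and 112 in fed replicates 1 to 6. It was at 176, 223, 175, 147, 233 and 203 in starved replicates 1 to 6. The groups overlapped, since starved replicate 4 lay below the fed mean of 149 ± 27.4 and fed replicate 5 lay above 3 libraries of starved fathers. The log2 difference was 0.37 ± 0.16 (SE), with limma giving an unadjusted p of 0.0278 and an adjusted p of 0.885. With fed replicate 2, 3 or 6 or starved replicate 2, 5 or 6 left out, one at a time, the unadjusted p from limma was 0.0501 to 0.0776. Limma's adjusted p was 0.357 with replicate number as a block, which the labels do not say pairs libraries. It was 0.618 with description code as a block.

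The most abundant ATPase gene was psmc1a, at 169 ± 17.8 in the fed and 209 ± 42.5 in the starved group (SD, n = 6 each), a log2 difference of 0.28 with a 95% interval from -0.03 to 0.59. Its copy psmc1b was at 95.4 ± 10.9 and 112 ± 21.1 (SD, n = 6 each). The means of psmc3 were 89.7 ± 13.5 and 94.7 ± 27.8, those of psmc6 82.3 ± 11.7 and 79.8 ± 12.8, and those of psmc4 45.8 ± 9.90 and 49.9 ± 10.9 (SD, n = 6 each). Least abundant was psmc5, at 43.0 ± 9.23 and 42.3 ± 17.5 (SD, n = 6 each). Groups overlapped for all of them.

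The base also holds the large scaffold subunits psmd1 and psmd2 and the ubiquitin receptor psmd4. Between them, the scaffold subunits dock ubiquitin-carrying shuttle proteins and anchor other subunits. All 4 genes of this class averaged higher in starved-father embryos. The value of psmd2 was 77.0, 59.7, 52.0, 42.8, 41.2 and 73.7 in fed replicates 1 to 6. In starved replicates 1 to 6 it was 109, 89.1, 84.6, 50.3, 94.3 and 96.0. The groups overlapped, since starved replicate 4 lay among the fed libraries, while the other libraries of starved fathers lay above every fed library. How many of all genes would separate with 1 library set aside was not counted. Means were 57.7 ± 15.2 and 87.2 ± 19.9 (SD, n = 6 each), where counting error alone would give an SD of 4.16 and 5.02. The log2 difference was 0.59 ± 0.20 (SE), 1.51-fold, and limma gave an unadjusted p of 0.00710 and an adjusted p of 0.810. With replicate number as a block, which the labels do not say pairs libraries, limma's adjusted p was 0.0892. With description code as a block it was 0.306.

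The psmd2 values are set here beside the tissue markers of the libraries and beside a second copy. Its lowest fed libraries, replicates 4 and 5, were also the 2 with the least muscle and the most yolk-layer signal. Starved replicate 4, its lowest starved library, came next in both, with summed muscle markers of 12465 and summed yolk-layer markers of 13983. Summed neural and lens markers were also lowest in these libraries. In other libraries the match failed. Fed replicate 3 had the most muscle signal of all, 28254, but a psmd2 value of 52.0. Fed replicate 1 had the next most yolk-layer signal after these libraries, 12901.5, but the highest fed psmd2 value, 77.0. The part of these tissues in the result was not tested. Without fed replicates 4 and 5, the log2 difference was 0.39, with a limma unadjusted p of 0.0621. Leaving out the 2 lowest fed libraries while keeping starved replicate 4 had to shrink the difference. The step therefore cannot decide whether these tissues play a part. The gene lies on the unplaced scaffold KN150158.1 from base 121 to base 15945 (build GRCz11). Another row of the table, PSMD2 (1 of many), carries the same description and lies on scaffold KN149818.1 from base 21 to base 22196. Reads of near-identical copies may have been split between them, and the rule does not match its capital letters. This second row was at 93.2 ± 14.2 in the fed and 115 ± 18.1 in the starved group (SD, n = 6 each), with all 6 starved-father libraries above the fed mean. Summed over both rows, a step chosen after seeing the data, psmd2 was at 151 ± 27.6 and 203 ± 33.4 (SD, n = 6 each). The log2 difference of the sum was 0.43 ± 0.16 (SE, limma adjusted p = 0.863).

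The scaffold gene psmd1 was at 170 ± 29.3 in the fed and 207 ± 34.8 in the starved group (SD, n = 6 each), a log2 difference of 0.29 with a 95% interval from -0.04 to 0.61. The receptor gene psmd4a was at 57.9 ± 7.81 and 63.0 ± 11.2, and psmd4b at 37.7 ± 7.17 and 40.6 ± 8.12 (SD, n = 6 each).

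In the lid 5 of 9 members averaged higher and 4 lower in starved-father embryos (mean of log2 values). The lid subunit psmd13 (chromosome 25, bases 10485103 to 10496779, GRCz11) helps hold the lid together. Its value was 61.6, 59.7, 48.8, 65.4, 59.5 and 52.8 in fed replicates 1 to 6. It was 70.7, 74.9, 95.9, 74.5, 92.3 and 109 in starved replicates 1 to 6. The groups did not overlap, since the highest fed library, replicate 4, was below the lowest of starved fathers, replicate 1. It was the only member of 45 with such a gap, where 0.11% of all genes were higher without overlap. Means were 58.0 ± 6.05 and 86.3 ± 15.3 (SD, n = 6 each), on 159 to 220 reads and 227 to 468 reads per library. Both SDs were above the 4.20 and 4.98 that counting error alone would give. The log2 difference was 0.55 ± 0.16 (SE), 1.47-fold, with a 95% interval from 0.23 to 0.88. Without a block, limma gave an unadjusted p of 0.00184 and an adjusted p of 0.775. Limma's adjusted p was 0.131 with the replicate block and 0.349 with the description code block.

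**Figure D3:**
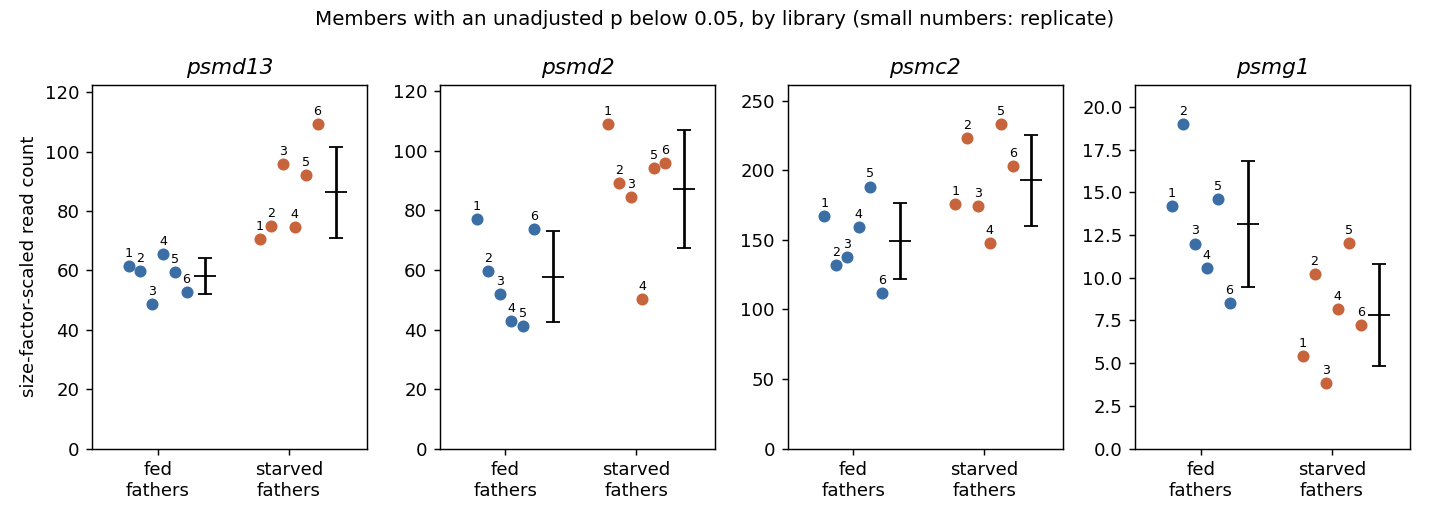
Values (size-factor-scaled read count, axes from 0) of psmd13, psmd2, psmc2 and psmg1 in each library, numbered by replicate, with group mean and SD (bars, n = 6 each). The psmd13 points of starved fathers lie above 70 and those of fed fathers below 66, while the other 3 genes overlap between groups.

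The other lid genes showed no such gap. The deubiquitinase psmd14, which clips the ubiquitin chain off the substrate, was at 63.9 ± 7.58 in the fed and 57.9 ± 14.7 in the starved group (SD, n = 6 each), and its partner psmd7 at 105 ± 27.3 and 94.1 ± 18.6 (SD, n = 6 each). For psmd12 the means were 94.2 ± 18.3 and 112 ± 17.7, for psmd6 they were 66.2 ± 6.69 and 72.8 ± 22.03, and for psmd8 they were 73.6 ± 20.2 and 66.4 ± 15.3 (SD, n = 6 each). Most abundant in the lid was psmd3, at 116, 115, 122, 52.4, 67.4 and 150 in fed replicates 1 to 6. In starved replicates 1 to 6 psmd3 was at 102, 96.4, 201, 86.5, 79.9 and 122. Its highest library held 3.83 times the lowest, the widest range in the regulatory particle, with a log2 difference of 0.16 between groups and a 95% interval from -0.34 to 0.65.

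Within description codes, whose meaning the labels do not give, psmd13 was higher in the starved library or libraries in all 5 codes. Its log2 difference was 0.20 in code 1118, 0.32 in code 1203, 0.96 in code 1210, 0.19 in code 1219 and 0.83 in code 1242. For psmd2 the 5 differences ran from 0.23 in code 1219 to 0.78 in code 1242, all higher, and for psmc2 they ran from -0.11 in code 1219 to 0.75 in code 1203. In all, 4 of 45 members (psmd13, psmd2, psmc1b and psmb1) were higher in every code, where 4.11% of all genes were. A further 4 (psmg1, psmg3, psmd11a and psmc3ip) were lower in every code, where 5.02% of all genes were. Each code but 1242 holds 1 library of each group, so these values have no error of their own.

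Assembly chaperones bring subunits together and leave the finished particle. Of 6 such genes 5 averaged lower in starved-father embryos and 1, psmg2, a higher one. The chaperone psmg1, which with psmg2 helps build the alpha ring, was at 14.2, 19.0, 12, 10.5, 14.6 and 8.51 in fed replicates 1 to 6. It was at 5.40, 10.2, 3.86, 8.17, 12.01 and 7.24 in starved replicates 1 to 6. All 6 starved-father libraries lay below the fed mean, and the groups overlapped between 8.51 and 12.01. Means were 13.1 ± 3.66 and 7.82 ± 3.01 (SD, n = 6 each), on 29 to 70 and 16 to 35 reads per library. The log2 difference was -0.72 ± 0.28 (SE), and limma gave an unadjusted p of 0.0190 and an adjusted p of 0.868. The unadjusted p from limma was 0.0555 without fed replicate 2 and 0.0541 without starved replicate 3. Limma's adjusted p for psmg1 was 0.357 with the replicate block and 0.555 with the description code block. Within codes its difference was lower in all 5, from -1.42 in code 1210 to -0.23 in code 1242. Its partner psmg2 was at 11.4 ± 4.60 and 13.3 ± 5.89 (SD, n = 6 each), so the 2 genes of one dimer had opposite signs, each with an adjusted p far above the threshold (limma, 0.868 and 0.961).

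For psmg3, another chaperone of the alpha ring, the means were 13.7 ± 4.21 in the fed and 10.9 ± 2.68 in the starved group (SD, n = 6 each). The base chaperone psmd9 was at 19.9 ± 5.27 and 18.0 ± 3.12, and psmd5 at 7.37 ± 3.96 and 6.39 ± 3.64 (SD, n = 6 each). All 6 starved-father libraries lay below the fed mean for psmg3 and psmd10, as for psmg1 and the lid gene psmd11a. How many of all genes do so was not counted. For psmg3 the highest of these libraries was only just below, at 13.5 against a fed mean of 13.7. So it was for psmd10, at 5.34 against 5.40. Values of psmd10 stood on 6 to 33 reads per library, and its 95% interval ran from -1.31 to 0.16. Beyond psmg1, no chaperone reached an unadjusted p of 0.05 with limma.

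Activators open the core without the regulatory particle. The nuclear activator psme3 was at 44.9 ± 10.6 in the fed and 42.0 ± 6.38 in the starved group, and psme4b at 36.8 ± 9.26 and 35.5 ± 7.87 (SD, n = 6 each). The inhibitor psmf1 was at 4.68 ± 2.08 and 4.92 ± 2.61 (SD, n = 6 each), on 2 to 43 reads per library. The meiotic recombination cofactor psmc3ip, named for binding psmc3, was at 11.7 ± 2.41 and 9.56 ± 1.86 (SD, n = 6 each).

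Among the members, a pair of a and b copies was listed for 4 subunits. The second psmd2 row, given above, is not among these pairs. Copy psmc1a gave 63.9 ± 3.02% of the pair's summed value in the fed and 65.0 ± 2.33% in the starved group, and it was above psmc1b in all 12 libraries. For psmd4a the share was 60.7 ± 3.16% and 60.8 ± 4.01%, also above psmd4b in all 12. The lid copy psmd11a took 56.7 ± 5.89% and 48.9 ± 4.80% of its pair, with group means of 42.4 ± 10.9 and 35.1 ± 6.71 for psmd11a and 31.98 ± 6.09 and 36.3 ± 4.04 for psmd11b. For psma6a the share was 46.6 ± 4.96% and 42.9 ± 10.5% (SD, n = 6 each for all shares and means in this paragraph), and psma6b was at 38.2 ± 16.7 and 39.2 ± 11.6. Shares of psmd11a overlapped, 48.6 to 63.0% against 42.0 to 53.6%. Counts of copies are uncertain where their 3' ends are alike, and this was not tested here.

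Summed over the 15 core members, values were 1766 ± 171 in the fed and 1890 ± 186 in the starved group (SD, n = 6 each). Over the 20 regulatory members they were 1637 ± 135 and 1853 ± 179 (SD, n = 6 each). The group ranges overlapped for both, 1499 to 1939 against 1665 to 2087 in the core and 1399 to 1778 against 1567 to 2061 in the regulatory particle. The ratio of the regulatory to the core sum was 0.932 ± 0.0964 and 0.984 ± 0.0919 (SD, n = 6 each). It was highest in starved replicate 3 (1.14) and fed replicate 6 (1.11) and lowest in fed replicates 4 (0.847) and 5 (0.847), so it varied within groups more than between them.

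**Figure D4:**
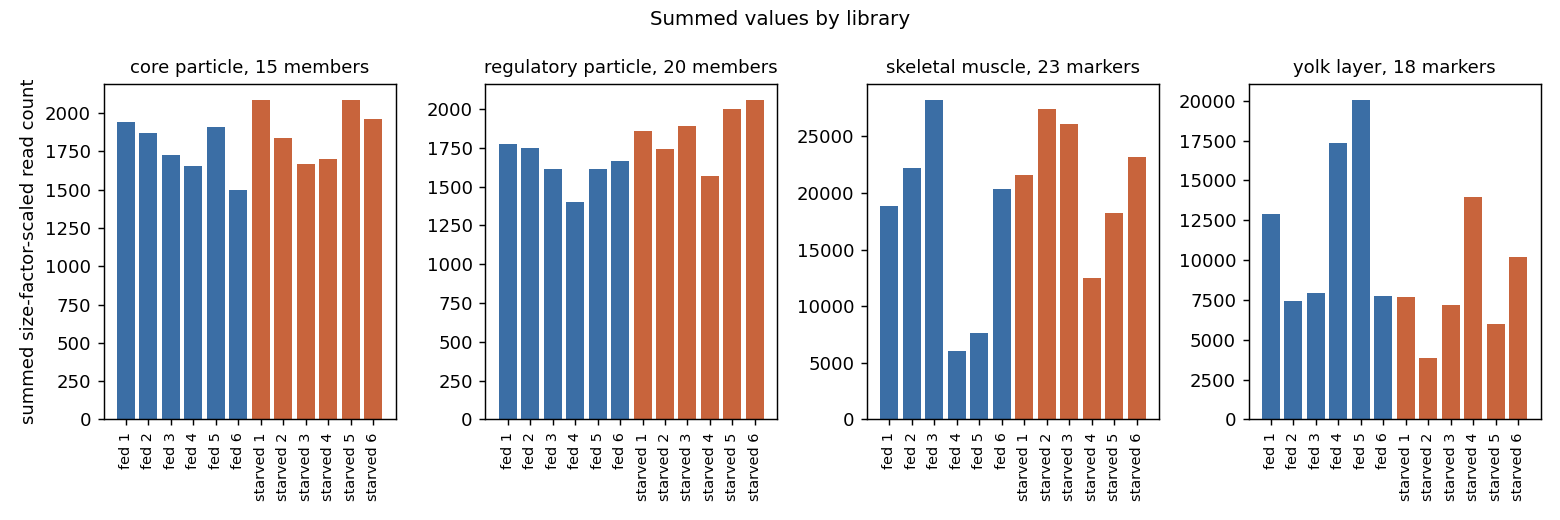
Summed values (size-factor-scaled read count, bars from 0) of the core particle, the regulatory particle, the skeletal muscle markers and the yolk-layer markers in each library, fed fathers in blue and starved fathers in orange. Fed replicates 4 and 5 hold the least muscle and most yolk-layer signal, and starved replicate 4 comes next; the regulatory sum is lowest in fed replicate 4 (1399) and starved replicate 4 (1567), and the core sum in fed replicate 6 (1499).

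Some members ran in opposite directions across the libraries. Starved replicate 3 held the lowest value of 4 core and 5 regulatory members, psma6a, psma2 and psmd14 among them, and the highest of 2 core and 3 regulatory members, psmd3 among them. Fed replicate 6 held the lowest value of 6 of the 15 core members but the highest of psmd7 and psma4. In fed replicates 4 and 5 psma6a, psma6b and psma5 were high while psmd3, psmd1 and psma8 were low. Starved replicates 5 and 6 each held the highest value of 5 regulatory members.

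Summed tissue markers are given here beside psma6a and psmd3, the members with the widest ranges in the core and the regulatory particle, which were picked after their values were seen. The epidermal list for psma6a and the muscle list for psmd3 were taken from several marker lists. Matches of the other lists with these genes are not given, so a match here carries little weight. Summed values of the 10 epidermal markers were highest in fed replicate 5 (15762), starved replicate 5 (13499) and fed replicate 4 (13137). They were lowest in starved replicate 3 (6572) and fed replicate 6 (8025). These are also the libraries with the 3 highest and 2 lowest psma6a values. Between these extremes the match failed, since starved replicate 2 had summed epidermal markers of 8996 and a psma6a value of 37.0. Starved replicate 1 had more epidermal signal, 11391, and a lower psma6a value, 32.4. The 23 muscle markers summed to 6023 and 7597 in fed replicates 4 and 5, where psmd3 was lowest, and to 12465 to 28254 in the other 10 libraries. Muscle signal and psmd3 did not run together throughout, since starved replicate 2 had summed muscle markers of 27390 and a psmd3 value of 96.4. By group, 21 of the 23 muscle markers had a higher and all 18 yolk-layer markers listed a lower mean in starved-father embryos, with median log2 differences of 0.56 and -0.60. Of the 8 heat shock genes listed 7 had a higher mean, with a median of 0.26. The epidermal, neural, lens and erythroid lists had medians of 0.00, 0.03, 0.34 and -0.03. The 5 myeloid markers listed all had a lower mean, with a median of -0.31, but summed to only 9.39 to 32 per library. The part of cell makeup in the members' values was not tested.

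**Figure D5:**
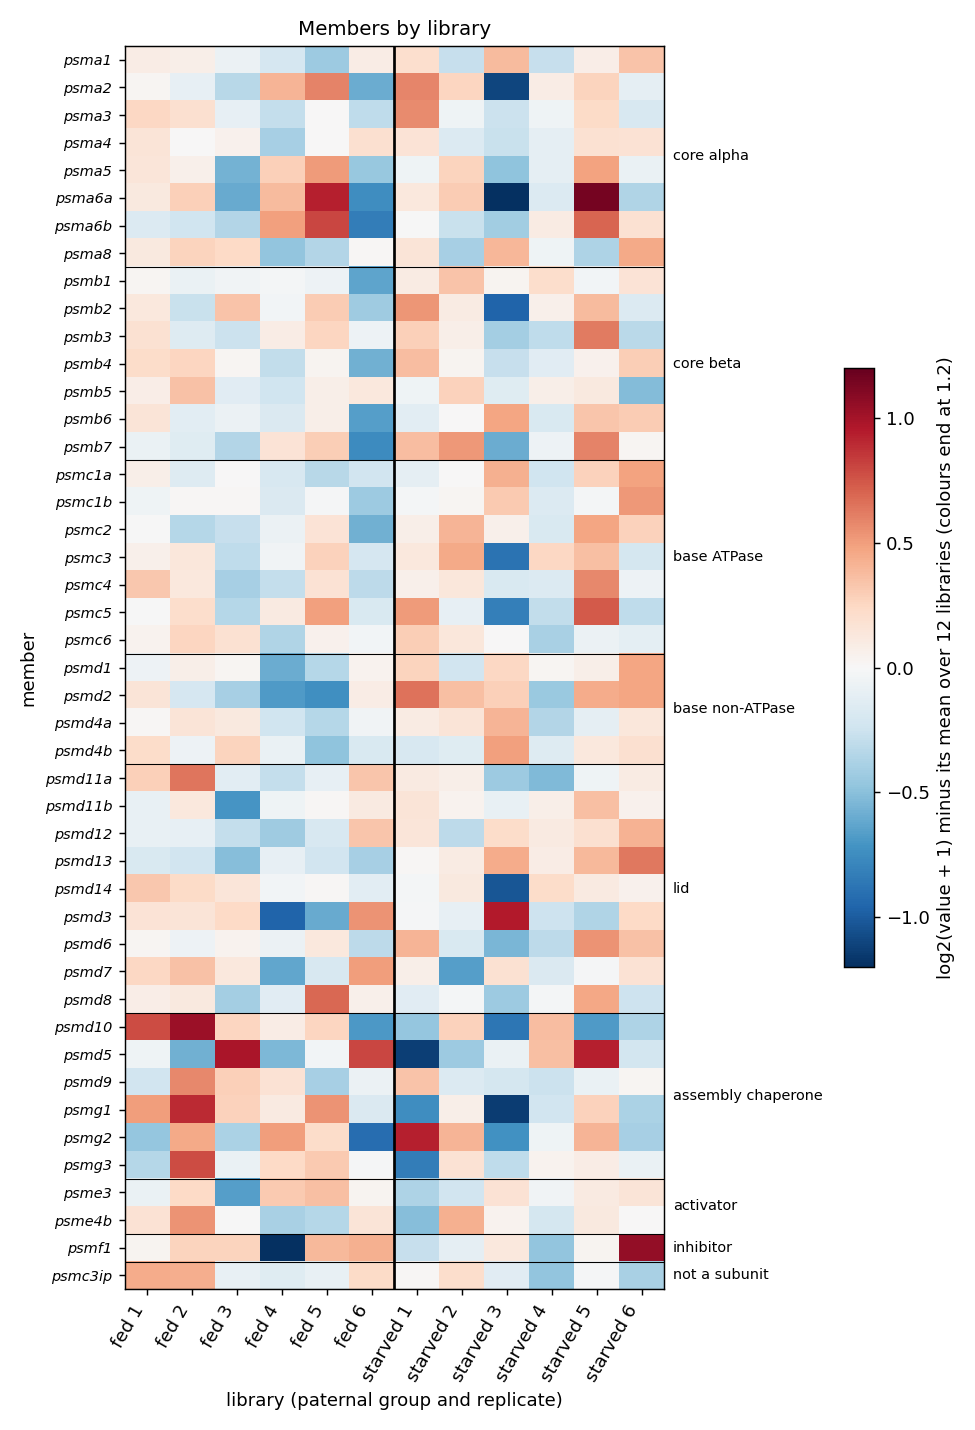
Each member's log2(value + 1) minus its mean over the 12 libraries (colour, red above and blue below), with members in rows by class and libraries in columns, fed fathers left of the line; the colours are capped, and psma6a in starved replicate 3 and psmf1 in fed replicate 4 lie beyond the cap. The rows of psma6a and psmd3 show opposite colours in fed replicate 4, fed replicate 5 and starved replicate 3, and psmd13 is the row whose 6 starved columns are all above its fed columns.

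Around the proteasome, a list of 64 genes of its partners, of ubiquitin and of substrate delivery had 50 rows in the table. Of these 29 averaged higher and 21 lower in starved-father embryos (mean of log2 values), with a median of 0.03, and limma called none (smallest adjusted p = 0.810). By unadjusted p below 0.05, 1 was higher and 4 were lower, beside the 2.11% and 3.44% of all genes. Partners and regulators gave 5 higher and 11 lower means, ubiquitin and its conjugating enzymes 14 and 8, and shuttles and the unfolding machinery 10 and 2.

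The gene with the smallest p on that list was ddi2, whose product in mammals cleaves and so activates the transcription factor that drives proteasome genes. It was at 38.1 ± 5.87 in the fed and 26.0 ± 4.90 in the starved group (SD, n = 6 each), and all 6 starved-father libraries lay below the fed mean. Its log2 difference was -0.54 ± 0.18 (SE, limma adjusted p = 0.810). The shuttle gene rad23aa, which carries ubiquitin-tagged proteins to the base, was at 8.21 ± 1.74 and 12.8 ± 2.78 (SD, n = 6 each). It stood on 14 to 58 reads per library. All 6 starved-father libraries lay above the fed mean, but starved replicate 2 only just, at 8.25. The more abundant shuttle gene rad23b was at 188 ± 27.8 and 205 ± 30.8, and rad23ab at 8.05 ± 1.40 and 9.10 ± 2.85 (SD, n = 6 each). For rad23b and rad23ab the unadjusted p from limma was 0.408 and 0.633. Among ligase genes, rbx1, the RING subunit of cullin ligases, was at 66.6 ± 18.2 and 46.5 ± 18.5, and the conjugating enzyme genes ube2c and ube2g2 were at 48.8 ± 11.9 and 35.5 ± 11.1 and at 3.69 ± 2.06 and 1.53 ± 1.17 (SD, n = 6 each). None of these passed limma's test. Values of ube2g2 were low, on 5 to 20 reads per library in the fed and 2 to 16 in the starved group.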

How the data were processed

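Libraries were made with the QuantSeq 3' kit, forward version, per the labels' protocols. STAR, edgeR and build GRCz11 are named in the submitters' processing notes. For the counting program, its settings and its use of strand, the sources used here give nothing. One table of 13680 genes was analysed. The signal values deposited by the authors for each library are read counts that they had normalized by a size factor before deposit, as the values themselves show, since 100% were within 0.03 of a whole multiple of 1 read. Whole reads were recovered from these multiples. Per the file headers, the authors' log2 fold change and FDR, an adjusted p-value, stand beside them.

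Groups come from sample titles and columns from descriptions. The main test was limma 3.58.1 (R 4.3.3, trend) on log2(value + 1), which understates changes of low genes, over all 13680 genes without a filter or block, with Benjamini-Hochberg adjustment at 0.05. Alternatives were edgeR 4.0.16, limma-voom and DESeq2 1.42.0 on recovered reads, other pseudocounts, filter and scaling, blocks, replicates 5 and 6 averaged, and left-out libraries. edgeR called 0 genes and had 649 at an unadjusted p below 0.05, limma 0 and 758, limma-voom 0 and 761, DESeq2 0 and 754. The steps were tested on simulated counts, but the outcome is not given here and lends no weight to the results. Members and lists were chosen with earlier results of these data known. All members are accounted for, mostly by group means. Values in every library are given for members with an unadjusted p below 0.05 and for psmb1, psma6a and psmd3, which were added after their values were seen. Listed pathway genes are named at the same p, with rad23b and rad23ab added beside rad23aa. No 2 libraries of a group were duplicates (chi-square per degree of freedom 6.33 to 40.6 over 30 pairs). Counting errors cover reads only, not PCR copies.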

Additional observations from a re-analysis of the deposited data

Results flagged for a closer look

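Single libraries stood apart from the other 5 of their group for 9 of the 90 sets of member values, and for the ratio of the regulatory to the core sum, by a gap of over 0.625 of the group's range. In all 96 sets were examined, and chance flags about 1 in 20. Fed replicate 4 was low for psma4 (147, others 195 to 222) and for psmf1 (0.60, others 4.44 to 6.16), the latter on 2 reads. Fed replicate 6 was low for psmb1 (100.37, others 147 to 158), high for psmd12 (128, others 75.3 to 95.1) and high in the regulatory to core ratio (1.11, others 0.847 to 0.937). Fed replicate 3 was low for psmd11b (20.3, others 31.7 to 36.9). Starved replicate 3 was low for psmd14 (28.7, others 58.5 to 69.5) and high for psmd3 (201, others 79.9 to 122). Starved replicate 5 was high for psmc4 (70.7, others 41.2 to 51.5), and starved replicate 6 for psmf1 (10.1, others 2.83 to 4.82).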

How the results depend on the processing

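No member passed an adjusted p below 0.05 under any of the 24 other settings, and the 4 members with an unadjusted p below 0.05 kept their direction in each. The labels share replicate numbers and description codes between groups but do not say that either pairs libraries. In the code that replicates 5 and 6 share, the descriptions also carry a letter that is common to same-numbered libraries. Same-numbered libraries deviated together with correlations of 0.0706 to 0.317 over all genes, over 0.1 in 4 of 6 pairs, and 10 of 12 libraries correlated best with their own number. With the replicate block limma called 39 genes, none a member, and 5 members were higher at an unadjusted p below 0.05 (psmc1a and psmd1 besides the 3 named), where 3.79% of all genes were; with the description code as a block it called 1 gene. Over the settings the adjusted p ran from 0.131 to 0.999 for psmd13 and from 0.0892 to 0.999 for psmd2, the lowest both with the replicate block, where psmd2 was below the limit of 0.1 that the authors used and psmd13 was not. Leaving out each library in turn gave 0 genes called, 2 to 4 members higher and 0 to 2 lower at an unadjusted p below 0.05, with no lower member without fed replicate 2 or starved replicate 3. The second lower member without fed replicate 6 was psmd10. Without fed replicates 4 and 5 together, 2 members were lower, psmg1 and psmd7. Medians ran from -0.03 to 0.15 for the core and from 0.08 to 0.18 for the regulatory particle when 1 library was left out, and the core median was -0.01 with replicates 5 and 6 averaged. Depth limits the chaperones, psmf1 and psmc3ip most: 9 of the 45 members had under 50 reads in some library. These include the core member psma6a, on 43 reads in starved replicate 3.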
